A study of Homo sapiens with 14 samples.

Results

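The share of each gene's mRNA fragments that carried the s4U mark was compared between HEK293T cells fed s4U for 24 h and HEK293T cells fed s4U for 1 h. HEK293T is an established human embryonic kidney cell line, and s4U (4-thiouridine) is a uridine analog that growing cells build into new RNA. Acrylonitrile adds a cyanoethyl group to s4U, which is then read as C, so that a mismatch serves as the sign of RNA made after s4U was added. A mismatch alone does not show new RNA. In the libraries without s4U, 7.41% and 7.73% of fragments over the genes defined next also had one. The genes were all protein-coding genes with at least 50 fragments in each of the 4 labelled libraries, joined by their identifier, which gave 9409 genes of 20345 protein-coding genes and of 57820 genes in the tables. The groups were 24 h of s4U with acrylonitrile, 1 h of s4U with acrylonitrile and no PDP, and acrylonitrile without s4U, with 2 libraries each. PDP is the G-quadruplex-binding compound of the second experiment, in which s4U was added 20 min after a mock step at 0 µM PDP. All 6 libraries held polyadenylated RNA that was treated with acrylonitrile. The s4U dose was 500 µM for 1 h. For 24 h the sample labels give 500 µM and the protocol text gives 50 µM, so labeling time, s4U dose and experiment cannot be told apart in the comparison. The acrylonitrile-only libraries belong to the 24 h experiment.

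An mRNA pool under constant synthesis and decay is replaced at the rate of its decay, and cell growth adds new mRNA to it. The labelled share of a gene thus rises toward all of its mRNA, quickly for a short-lived mRNA and slowly for a long-lived one. A short pulse therefore spreads out the short-lived mRNAs, while a long pulse spreads out the long-lived ones. mRNAs of transcription factors and of feedback inhibitors of signaling are known for fast turnover, and those of ribosomal proteins, metabolic enzymes and the extracellular matrix for slow turnover.

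The 6 libraries had between 4164503 and 9075325 fragments in genes. These were 68.4% to 70.9% of the library's fragments in the 24 h and acrylonitrile-only libraries and 82.6% to 83.0% in the 1 h libraries. Whether the 2 replicates of a group came from separate dishes is not stated, so the spread between them may be technical. Genes of kidney and neuron-like cells that HEK293 cells use, fixed as markers, summed to 10062 and 9140 fragments in the 24 h libraries, 10260 and 11018 in the 1 h libraries, and 6426 and 4939 with acrylonitrile only, with 10 or 11 of 11 detected in each. VIM alone gave 6591 and 6285 of these after 24 h and 5776 and 6205 after 1 h. The kidney factor PAX8 had 0 and 0 fragments after 24 h and 0 and 1 after 1 h, and PAX2 had 49 and 32 after 24 h. Markers of breast epithelium (9 measured) summed to 1481 and 1377 fragments after 24 h, 2271 and 2417 after 1 h, and 1537 and 1321 with acrylonitrile only. Plasma protein genes of the liver (18 measured) summed to 361 and 624 fragments in the 24 h libraries, 7 and 7 in the 1 h libraries, and 665 and 1299 with acrylonitrile only, and none of them was among the 9409 genes. Among them ALB, or serum albumin, was marked in 9.63% and 11.1% of 135 and 217 fragments in the 24 h libraries and 7.82% and 6.54% of 243 and 520 with acrylonitrile only, and it had 0 and 1 fragments in the 1 h libraries. The part of such little-marked fragments in the 24 h shares of other genes was not tested.

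Most fragments were marked after 24 h and few after 1 h. Over the 9409 genes, 76.5% and 75.9% of fragments carried a mismatch in the 24 h libraries, 16.6% and 16.6% in the 1 h libraries, and 7.41% and 7.73% with acrylonitrile only. The 95% Wilson intervals were at most 0.1 percentage points wide and cover counting error only. The median gene was marked in 92.3% and 90.1% of its fragments after 24 h, 18.3% and 18.4% after 1 h, and 7.14% and 7.53% with acrylonitrile only. The 24 h medians lay above those of both other groups, whereas the lower part of the 1 h distribution overlapped that of the acrylonitrile-only libraries. After 24 h the lowest 5% of genes were under 51.4% and the highest 5% above 96.3%. After 1 h the lowest 5% were under 8.93% and the highest 5% above 42.8%. The median SD between replicates was 1.51 percentage points after 24 h, 1.26 after 1 h and 1.11 with acrylonitrile only. Genes just inside the minimum of 50 fragments (50 to 54 in their lowest library, 243 genes) had median shares of 91.0% after 24 h and 22.8% after 1 h, and those just outside it (45 to 49, 263 genes) had 91.8% and 25.4%.

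**Figure D1:**
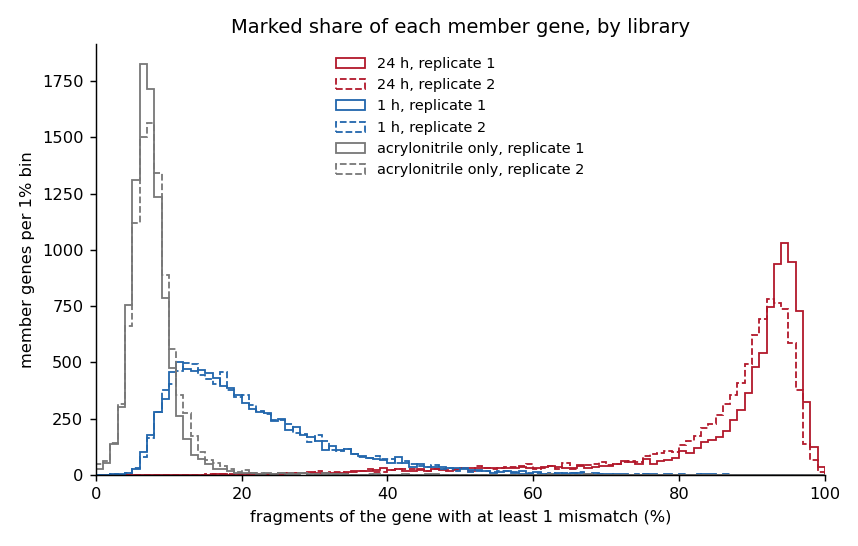
Number of member genes (vertical axis, per 1% bin) against the marked share of the gene's fragments (horizontal axis, percent) in each of the 2 libraries of 24 h s4U, 1 h s4U and acrylonitrile only. The 24 h libraries crowd near their medians of 92.3% and 90.1% with a long tail to the left, and the 1 h libraries have a tail to the right of medians of 18.3% and 18.4%.

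Nearly every gene had a higher marked share after 24 h than after 1 h. Of 9381 genes that also had 20 fragments in both acrylonitrile-only libraries and entered the fit, 9370 were higher after 24 h and 1 was lower at an adjusted p under 0.05, and 10 did not pass (edgeR's quasi-likelihood test on marked and unmarked counts, Benjamini-Hochberg adjustment over all 11867 genes tested). Over all genes tested, 99.7% were called higher and 0.00843% lower, so the count says little about single genes. The other 28 genes lacked fragments in the acrylonitrile-only libraries and were not in this fit. Both 24 h libraries lay above both 1 h libraries in 9406 of the 9409 genes. The median difference was 68.2 percentage points, and the median log2 odds ratio of a marked fragment was 5.25. The range of differences was wide, however. The middle 50% of genes differed by 58.1 to 74.8 points, and the largest difference was 88.6 points.

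The genes without a call fell into different kinds. DUSP1, a phosphatase that switches off MAP kinases, was marked in 92.5% and 85.6% of fragments after 24 h, 84.4% and 82.7% after 1 h, and 5.30% and 4.88% with acrylonitrile only. It was high at both times and low without s4U (log2 odds ratio 0.66 ± 0.40 SE, adjusted p = 0.11, edgeR). In contrast, EMID1, a gene of an extracellular protein, was low at both times, with 29.7% and 21.2% after 24 h, 20.1% and 23.4% after 1 h, and 5.66% and 8.02% with acrylonitrile only. CDH23, a cadherin of the inner ear, had 23.9% and 28.6% after 24 h and 27.6% and 26.6% after 1 h, and its libraries overlapped. In a further group the share was high without s4U. HFM1, a helicase of meiosis, was marked in 21.8% and 18.7% after 24 h, 18.3% and 17.5% after 1 h, and 18.1% and 19.3% with acrylonitrile only, so that no labeling was detectable above its background. SLCO5A1, a transporter gene, had 58.4% and 56.8% after 24 h, 55.1% and 52.2% after 1 h, and 46.2% and 45.3% with acrylonitrile only. ANKRD30BL, the only gene called lower after 24 h, had 94.4% and 90.2% after 24 h, 96.3% and 98.9% after 1 h, and 96.9% and 94.7% with acrylonitrile only. A further 4 without a call (CRTAC1, FAM211A, IGFBP7 and SURF1) had only 50 to 121 fragments in each labelled library. Without 24 h replicate 2, DUSP1, EMID1, HFM1 and SLCO5A1 passed as higher after 24 h, with log2 odds ratios of 1.25, 0.60, 0.36 and 0.28, and ANKRD30BL was no longer called lower without 24 h replicate 2 or without 1 h replicate 2 (0 genes lower).

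Marked shares above the acrylonitrile-only level were found for almost all genes after 24 h and for most after 1 h. The acrylonitrile-only libraries belong to the 24 h experiment, so in the 1 h comparison s4U and experiment cannot be told apart. After 24 h, 9377 of 9381 genes were higher than with acrylonitrile only and 0 were lower (edgeR, adjusted p under 0.05; also 0 lower at an unadjusted p under 0.05 and 0 with DESeq2), against 99.9% and 0% of all genes tested. After 1 h, 7915 were higher, 7 were lower and 1459 did not pass, against 83.4% and 0.0674% of all genes tested. Of genes under 10% marked after 1 h, 36.4% were above the acrylonitrile-only level. This share was 81.3% for genes with 10% to 20%, 98.1% for genes with 20% to 50% and 99.1% for genes above 50%. The 7 genes called lower after 1 h than with acrylonitrile only included VEGFB, TIMM17B, SERINC2, PID1, COL14A1 and RND2, and 3 genes were called without 1 h replicate 1 or 1 h replicate 2 and 4 without acrylonitrile-only replicate 2. VEGFB, a vascular growth factor described here after its values were seen, had 68.2% and 69.5% after 24 h, 42.1% and 42.3% after 1 h, and 46.5% and 56.8% with acrylonitrile only. All but COL14A1 and RND2 of the 7 belong to 77 genes that were marked in over 20% of fragments without s4U, 11 of which exceeded 40%. Also among the 77 were POLR2L, an RNA polymerase subunit, with 67.1% and 64.4% marked without s4U, CYBA, a subunit of NADPH oxidase, with 55.2% and 59.9%, and SRSF2, a splicing factor, with a mean of 22.8%. Their shares after 24 h and 1 h include this part.

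The order of genes was only partly shared between the times. Across the 9409 genes the Spearman correlation of the mean shares after 24 h and 1 h was 0.50 (Pearson 0.38), against 0.87 between the 24 h replicates and 0.92 between the 1 h replicates. These are descriptions across genes, which are not independent replicates, and the 4 libraries share the genes' depth and base composition. A low share after 1 h left the 24 h share open. Genes under 10% after 1 h (894 genes) had 24 h shares from 30.7% to 93.0% between the lowest and the highest 5%, with a median of 71.6%. Of these, 210 stayed under 50% after 24 h and 122 reached 90%. Genes over 50% after 1 h (224 genes) had a median of 94.6% after 24 h, and 199 of them reached 90%, 4 were under 80% and 0 under 50%. Seen from the other side, the 434 genes under 50% after 24 h had a median of 10.1% after 1 h, and the 5398 genes from 90% had a median of 22.3%, with 11.3% to 46.8% between the lowest and the highest 5%. The cloud of genes had the shape of a bent band with a steep limb at the left and a flat limb at the top.

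**Figure D2:**
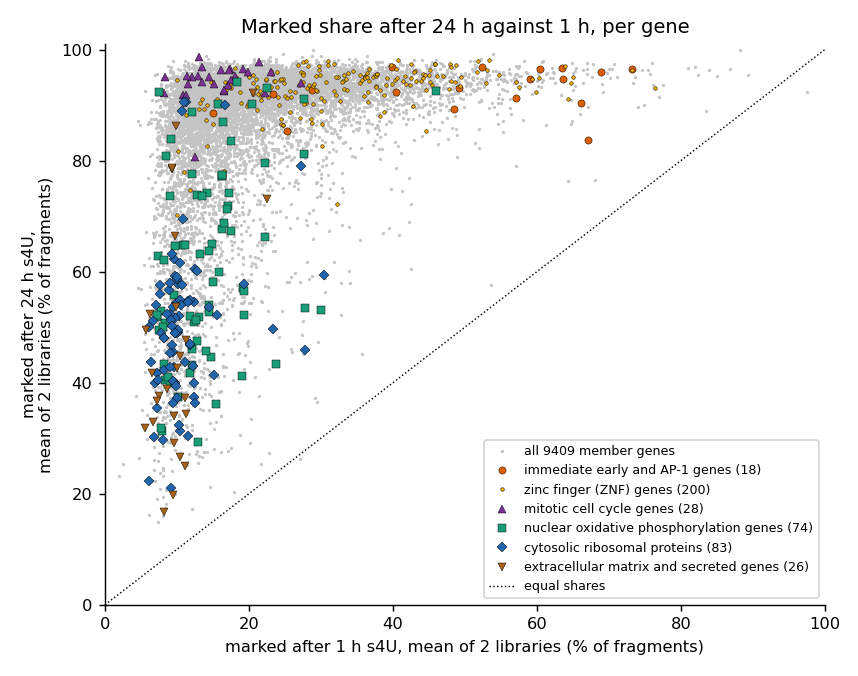
Mean marked share after 24 h (vertical axis, percent of fragments) against the mean marked share after 1 h (horizontal axis, percent of fragments), with 1 point per gene. Grey points are all 9409 genes, and colored points are members of 6 gene lists. Immediate early and ZNF genes run along the top, mitotic genes sit in the upper left corner, and ribosomal protein, oxidative phosphorylation and extracellular matrix genes fall down the left side.

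The 10 highest shares after 1 h belonged to genes of several kinds. Among genes with at least 200 fragments in each labelled library, ZNF296 (chr19:45574758-45579846 on the minus strand, GRCh37), a zinc finger protein, had 94.7% and 91.4% marked fragments after 24 h, 77.5% and 75.3% after 1 h, and 7.62% and 3.75% with acrylonitrile only. SPRY1, an inhibitor of receptor tyrosine kinase signaling, had 95.7% and 91.6% after 24 h and 76.7% and 75.6% after 1 h. RASSF1, a tumor suppressor that binds Ras-like proteins, had 95.5% and 95.6% after 24 h and 76.2% and 75.3% after 1 h. PPP1R15A, which restores translation after stress, had 94.6% and 95.5% after 24 h and 75.2% and 72.1% after 1 h, although 11.9% and 15.2% were marked without s4U. DDIT4, an inhibitor of mTORC1, had 97.2% and 95.8% after 24 h and 70.2% and 69.7% after 1 h. The other 5 of the 10 highest were FLJ27365, ZNF574, HOXA6, SP9 and C1orf63. All 10 were called higher after 24 h, as were 99.7% of all genes tested. Both 24 h libraries lay above both 1 h libraries in all 10, as in 9406 of the 9409 genes, so neither sets these 10 apart.

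Immediate early and AP-1 genes, which cells switch on within minutes of a stimulus, had the highest list median after 1 h. The median of the 18 members was 92.8% after 24 h and 54.8% after 1 h, against 91.2% and 18.4% for all 9409 genes, and 7.01% with acrylonitrile only. All 18 were called above the acrylonitrile-only level after 1 h, against 83.4% of all genes tested. JUN, an AP-1 subunit, had 95.6% and 94.0% after 24 h and 64.7% and 62.5% after 1 h. MYC, a growth-promoting transcription factor, had 97.0% and 96.1% after 24 h and 60.5% and 60.4% after 1 h. KLF6, a zinc finger factor, had 96.8% and 96.3% after 24 h, and its 1 h libraries lay apart at 63.7% and 82.6%. JUNB had the lowest 24 h share of the list, 80% and 87.3%, beside 68.3% and 65.8% after 1 h. SRF, the factor that turns on many genes of this list, was the lowest after 1 h with 15.9% and 14.2%, beside 91.1% and 86.1% after 24 h.

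The other regulatory lists followed. ID, HES and Notch repressors, which block differentiation factors, had medians of 93.1% after 24 h and 40.7% after 1 h (11 genes). ID1 reached 97.2% and 90% after 24 h and 80.2% and 75% after 1 h, and HES6 only 83.9% and 77.5% after 24 h and 12.5% and 13.2% after 1 h. MAP kinase feedback inhibitors had medians of 93.4% and 32.1% (10 genes), stress response genes 94.5% and 32.6% (14 genes), HOX genes 94.0% and 30.4% (34 genes), and zinc finger (ZNF) genes 94.0% and 30.3% (200 genes), each given for 24 h first. ZNF genes ran from 70.2% in ZNF664 to 98.2% in ZNF317 after 24 h and from 9.996% in ZNF106 to 76.4% in ZNF296 after 1 h. Every member of the ID, MAP kinase, stress response and HOX lists was called above the acrylonitrile-only level after 1 h, and 192 of the 200 ZNF genes were. This compares with 83.4% of all genes tested and with 98.1% of genes that had 20% to 50% marked after 1 h. The 24 h medians of these lists and of the immediate early genes thus ran from 92.8% to 94.5%, and the 1 h medians from 30.3% to 54.8%.

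AU-rich elements are 3′ UTR sequences that recruit decay factors, and the 9-base core TTATTTATT was searched on the transcript strand of the 3′ UTR of each gene's canonical transcript (GENCODE 44 on GRCh37). It was found in 834 of 9075 genes with a 3′ UTR (9.19%), against 8.48% of all 19085 annotated protein-coding genes with a 3′ UTR. The sites of 5 genes with high 1 h shares are shown for the letters around the core, which is in capitals.
ZFP36L2: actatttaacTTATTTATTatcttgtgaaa
CDK5R1: tcccttatttTTATTTATTtttgtactgtg
ISL2: taagttattgTTATTTATTgtgagaacagc
ZFP36L1: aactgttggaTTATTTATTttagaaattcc
FOXF1: aggctcctgtTTATTTATTctactttcttt
They lie at chr2:43450586-43450615 (minus strand), chr17:30818213-30818242 (plus), chr15:76634735-76634764 (plus), chr14:69254793-69254822 (minus) and chr16:86547635-86547664 (plus) in GRCh37. ZFP36L2 and ZFP36L1 themselves encode proteins that bind AU-rich elements, CDK5R1 an activator of CDK5, and ISL2 and FOXF1 transcription factors. Their mean shares were 96.0%, 89.6%, 95.7%, 96.7% and 93.5% after 24 h and 68.9%, 67.1%, 65.0%, 63.5% and 58.3% after 1 h.

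Genes with the core were slightly more marked at both times. The median of the 834 was 92.5% after 24 h and 21.1% after 1 h, and that of the 8241 genes without it was 91.0% and 18.0%. The core was held by 118 of the 908 genes with the highest 1 h shares (13.0%) and by 46 of the 908 with the lowest (5.07%). By 24 h share it was held by 107 of the 908 highest (11.8%) and 23 of the 908 lowest (2.53%). Across genes, 3′ UTR length had a Spearman correlation of 0.21 with the 24 h share and 0.16 with the 1 h share. Among genes with a 3′ UTR of 1333 to 2797 bases, 215 genes with the core had medians of 92.8% and 21.3%, and 2054 without it had 91.8% and 19.1%. A match is a description of these letters, not a shown binding site.

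Mitotic genes were among the most fully marked after 24 h and below the median after 1 h. The 28 members, which drive chromosome segregation and cell division, had medians of 95.03% after 24 h and 15.6% after 1 h. KIF20A, a kinesin of cytokinesis (chr5:137514408-137523404 on the plus strand, GRCh37), had 99.05% and 98.4% after 24 h, 14.0% and 12.1% after 1 h, and 9.71% and 6.25% with acrylonitrile only. It stood at the 99.9th percentile of all genes after 24 h and at percentile 24.9 after 1 h. TPX2, a spindle assembly factor, had 96.1% and 94.0% after 24 h and 7.598% and 9.15% after 1 h, beside 6.55% and 9.01% with acrylonitrile only, so that 1 h of labeling was not detectable at this depth. MKI67, the proliferation marker Ki-67, had 96.3% and 94.2% after 24 h and 11.6% and 11.2% after 1 h. BUB1, a spindle checkpoint kinase, had the lowest 1 h share of the list, 8.79% and 7.49%, beside 93.6% and 90.8% after 24 h. BIRC5, or survivin, was the exception after 24 h with 80.4% and 80.7%. After 1 h, 23 of the 28 were called above the acrylonitrile-only level, a share close to the 83.4% of all genes tested.

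The 18 licensing genes, which load the replicative helicase, had medians of 93.0% after 24 h and 17.2% after 1 h. PCNA, the sliding clamp of DNA polymerase, had 99.1% and 97.5% after 24 h and 15.9% and 12.6% after 1 h. MCM3, a helicase subunit, had 94.6% and 93.1% after 24 h and 10.5% and 10.0% after 1 h. MCM2, MCM5 and MCM7 lay at 90.5% to 94.8% after 24 h and 10.7% to 13.3% after 1 h. ORC2 of the origin recognition complex was the highest after 1 h, with 42.6% and 28.8% of 94 and 104 fragments.

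Among G1 regulators the family members were unlike each other. CCND1, or cyclin D1, had 86.9% and 83.7% after 24 h and 23.8% and 24.5% after 1 h. CCND3, or cyclin D3, had 93.1% and 87.6% after 24 h but 8.84% and 8.81% after 1 h. CDKN1B, the CDK inhibitor p27, had 96.9% and 95.7% after 24 h and 45.4% and 41.5% after 1 h. CCND2 had 95.7% and 94.0% after 24 h and 28.4% and 26.0% after 1 h, but a mean of 24.6% without s4U. In the BCL-2 family of apoptosis regulators, MCL1 had 95.4% and 93.6% after 24 h and 31.1% and 31.7% after 1 h. BCL2L11, the pro-apoptotic BIM, had 95.4% and 94.5% after 24 h and 53.5% and 60% after 1 h. BAD was low at both times, with 73.2% and 73.1% after 24 h and 10.4% and 11.04% after 1 h. EIF1, a translation initiation factor, had 95.2% and 92.8% after 24 h and 25.1% and 24.0% after 1 h.

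Ribosomal protein genes separated by compartment after 24 h. The 83 genes of the cytosolic ribosome had medians of 49.6% after 24 h and 9.86% after 1 h, and the 67 genes of the mitochondrial ribosome had 90.3% and 13.0%. The acrylonitrile-only medians were 7.42% and 7.03%. Of the cytosolic set 45 of 83 were called above the acrylonitrile-only level after 1 h, and of the mitochondrial set 41 of 67, against 83.4% of all genes tested. RPSA, of the small cytosolic subunit, had 20.5% and 21.7% after 24 h and 8.77% and 9.46% after 1 h. RPL21 had 23.8% and 20.9% after 24 h and 5.81% and 6.31% after 1 h, close to its mean of 5.46% without s4U. RPL22 stood apart after 1 h with 30.4% and 30.4%, beside 58.2% and 60.5% after 24 h. RPL36AL was the highest after 24 h with 88.9% and 92.0%. In the mitochondrial set MRPL46 had 97.7% and 95.9% after 24 h and 11.7% and 12.8% after 1 h, and MRPL11 had 56.1% and 57.7% after 24 h. Cytosolic ribosomal protein genes have many near-identical pseudogene copies, and only uniquely aligned pairs were kept, so that their counts are uncertain.

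The rest of the translation machinery spread between these sets. Elongation and poly(A)-binding genes had medians of 52.5% after 24 h and 10.8% after 1 h (9 genes), initiation factors 87.2% and 11.7% (35 genes) and cytosolic aminoacyl-tRNA synthetases 88.4% and 11.5% (20 genes). EEF1A1, which carries aminoacyl-tRNA to the ribosome, had 42.5% and 45.9% after 24 h and 7.94% and 8.26% after 1 h. EEF2, the translocase, had 74.9% and 74.6% after 24 h and 11.1% and 11.4% after 1 h. EIF4E, the cap-binding protein, had 95.7% and 92.3% after 24 h and 47.7% and 40.2% after 1 h. Between synthetases, NARS for asparagine had 96.7% and 96.8% after 24 h and VARS for valine 39.0% and 40.8%, while NARS had 9.16% and 9.27% and VARS 8.97% and 9.54% after 1 h.

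Genes of energy metabolism were among the least marked after 24 h. The 74 nuclear genes of oxidative phosphorylation had medians of 61.02% after 24 h and 13.8% after 1 h, and the 16 glycolytic enzymes had 49.8% and 10.7%. NDUFV1, a subunit of complex I, had 30.5% and 28.1% after 24 h and 12.1% and 13.6% after 1 h, which did not exceed its mean of 13.6% without s4U. ATP5B of the ATP synthase had 62.7% and 62.9% after 24 h and 7.31% and 7.51% after 1 h. UQCRFS1, the Rieske protein of complex III, was the highest after 24 h with 95.2% and 93.0%. NDUFV2 was the highest after 1 h with 47.0% and 45.1%, but a mean of 43.8% was marked without s4U. GAPDH had 45.3% and 47.3% after 24 h and 12.6% and 12.8% after 1 h, and ENO1 41.5% and 44.4% after 24 h and 9% and 8.92% after 1 h. HK2, which starts glycolysis, was the exception with 96.9% and 94.4% after 24 h and 14.9% and 16.3% after 1 h. Peroxiredoxins and thioredoxins, which remove peroxides, had medians of 45.5% and 9.96% (14 genes), and PRDX2 had 32.7% and 32.7% after 24 h and 7.70% and 9.25% after 1 h.

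**Figure D3:**
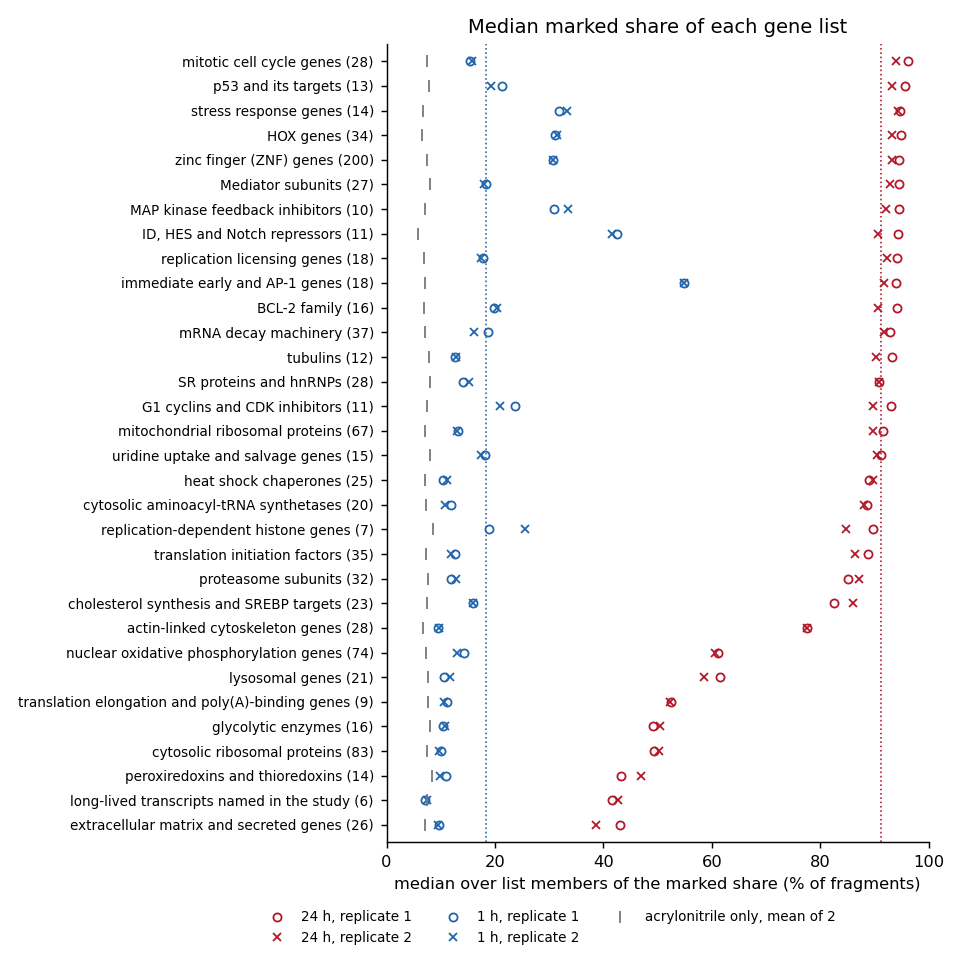
Median marked share (horizontal axis, percent of fragments) over the members of each gene list (rows, number of members in brackets), with a symbol for each library of 24 h and 1 h s4U and a tick for the acrylonitrile-only mean. Dotted lines are the medians of all 9409 genes, 91.2% after 24 h and 18.4% after 1 h. The 24 h medians run from 40.3% to 95.03% and the 1 h medians from 7.399% to 54.8%, in different orders.

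Extracellular matrix and lysosomal genes were low after 24 h, actin-linked genes less so, and tubulins were above the median gene. The 26 matrix and secreted genes had the lowest 24 h list median, 40.3%, and 9.57% after 1 h. LAMA1, a laminin chain of basement membranes, had 17.4% and 16.2% after 24 h, 9.13% and 7.25% after 1 h, and 4.46% and 6.90% with acrylonitrile only. COL4A2, a basement membrane collagen, had 28.8% and 24.6% after 24 h and 10.1% and 10.7% after 1 h. FBN1, or fibrillin, was the exception with 93.2% and 91.0% after 24 h. The 21 lysosomal genes had medians of 60.3% and 11.7%, with CTSD, or cathepsin D, at 31.1% and 29.5% after 24 h and 9.89% and 9.45% after 1 h. The 28 actin-linked genes had 77.6% and 9.61%. FLNA, an actin crosslinker, was the lowest of them with 26.9% and 25.3% after 24 h and 6.87% and 6.61% after 1 h, and EZR, or ezrin, the highest after 24 h with 93.6% and 91.6%. The 12 tubulins had 91.96% and 12.8%, and the family split after 24 h between TUBA1B with 65.0% and 68.4% and TUBA1C with 96.7% and 96.3%. Tubulin genes are near-identical in their coding part, which makes the split uncertain.

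The 6 transcripts the study names as long-lived had a median of 42.1% after 24 h and 7.399% after 1 h. They were chosen by the study for this property. APLP2 had 62.4% and 62.0% after 24 h and 9.03% and 9.86% after 1 h, MYH9 60.8% and 58.7% after 24 h and 7.53% and 7.65% after 1 h, and PRDX5 33.5% and 32.1% after 24 h and 7.4% and 7.21% after 1 h. After 1 h only 1 of the 6 was called above the acrylonitrile-only level, whose median was 7.496%. Their mean shares spanned 26.1% to 62.2% after 24 h and 6.74% to 9.44% after 1 h.

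The remaining lists had 24 h medians from 83.5% to 94.6%. Proteasome subunits, which degrade proteins, had medians of 86.3% after 24 h and 12.6% after 1 h (32 genes), from PSMD2 with 40.5% and 37.8% to PSMD6 with 95.6% and 95.1% after 24 h. Heat shock chaperones had 88.8% and 10.95% (25 genes), and HSPA8, the constitutive HSP70, had 96.9% and 95.3% after 24 h and 14.2% and 14.3% after 1 h. Cholesterol synthesis genes and SREBP targets had 83.5% and 15.9% (23 genes). Of these, FASN, or fatty acid synthase, was the lowest after 24 h with 52.2% and 49.8%. SR proteins and hnRNPs, which guide splicing, had 91.1% and 14.7% (28 genes), the mRNA decay machinery 92.3% and 17.7% (37 genes), Mediator subunits 93.7% and 18.5% (27 genes), and p53 with its targets 94.6% and 20.9% (13 genes). Uridine uptake and salvage genes, which handle nucleosides such as s4U, had 90.04% and 18.5% (15 genes). Replication-dependent histone genes had 87.2% and 22.4%, but only 7 of 71 had enough fragments in these polyadenylated libraries, and their paralogs are alike.

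**Figure D4:**
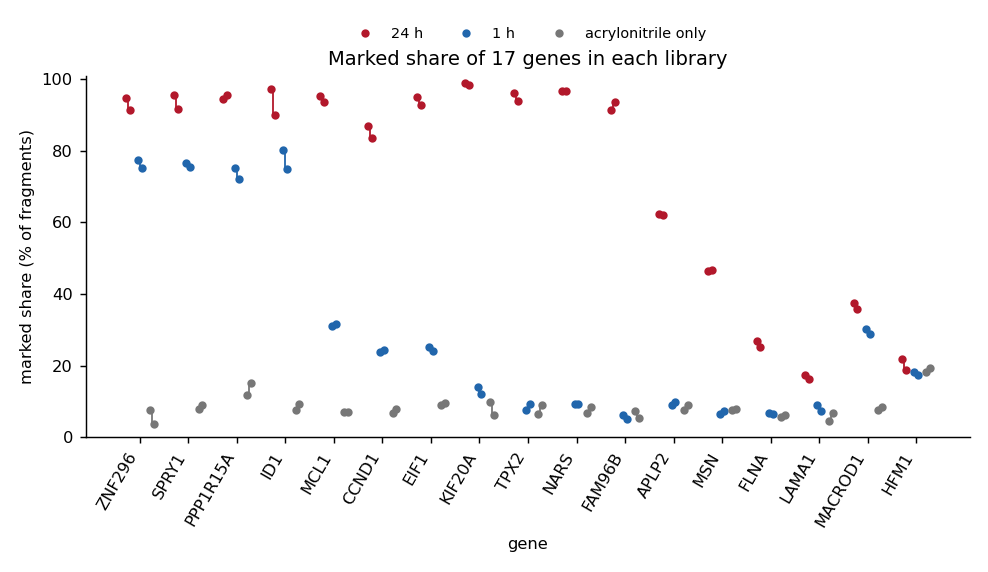
Marked share (vertical axis, percent of fragments) of 17 genes in each library, with 24 h, 1 h and acrylonitrile only from left to right for each gene and a line joining the 2 replicates. ZNF296 to ID1 are high at both times, KIF20A to FAM96B are above 90% after 24 h and near the acrylonitrile-only level after 1 h, and HFM1 shows no separation between the groups.

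The genes least marked after 24 h, among those with at least 200 fragments, were PCSK1N, LAMA1, PITRM1, INTS1, GAMT, HFM1, CST3, MXRA7, PLTP and MAN2B1. PCSK1N, the inhibitor of prohormone convertase 1 (chrX:48689504-48694035 on the minus strand, GRCh37), had 16.6% and 15.9% after 24 h, 6.82% and 5.37% after 1 h, and 5.59% and 6.55% with acrylonitrile only. INTS1, a subunit of the Integrator complex, had 18.8% and 15.9% after 24 h and 9.26% and 7.5% after 1 h, at 6052 to 9053 fragments per labelled library. CST3, the secreted protease inhibitor cystatin C, had 20.0% and 18.0% after 24 h and 6.39% and 8.01% after 1 h. PLTP encodes a secreted phospholipid transfer protein and MAN2B1 a lysosomal mannosidase. The 10 most marked after 24 h were KIF20A, PCNA, FAM160A2, SF3B4, HJURP, SPATA2, RBM22, SMCR8, AC138969.4 and TMEM11, and their mean 1 h shares reached from 13.1% in KIF20A to 51.7% in SPATA2. The lowest after 1 h included SRP14 of the signal recognition particle (40.9% and 34.5% after 24 h, 3.82% and 4.87% after 1 h) and CPE, a carboxypeptidase of hormone processing (47.3% and 47.2% after 24 h, 4.94% and 5.94% after 1 h), neither of which exceeded 6% after 1 h.

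To ask which genes gained more or less than the median gene between the times, the shares were put on the complementary log-log scale, ln(−ln(1 − share)). If the mark accumulates by first-order replacement, all new fragments are marked and none are marked without s4U, all genes differ by the same amount between 2 times on this scale. The measured shares do not meet this, since the median gene had 7.37% marked without s4U, beside 18.4% after 1 h. A call is therefore a difference from the median gene on this scale, not a departure from first-order replacement. After each library was centered on its median gene, limma called 2585 of the 9409 genes higher and 3238 lower at an adjusted p under 0.05, and 3586 did not pass, against 22.1% higher and 36.7% lower over all 12345 genes tested. The share of higher calls among all calls was 44.4%. It was 50.1% with the acrylonitrile-only share taken off each gene, 53.2% with edgeR log odds against the median gene and 34.4% with at least 100 fragments. A ceiling bounds this scale. The 99th percentile of the 24 h shares was 97.4%, which a gene with the median gain reaches from a 1 h share of 29.8%. Above that value lay 1697 genes, and 1538 of them were called lower. Among the other 7712 genes 2585 were called higher and 1700 lower.

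Of the 10 genes with the largest relative gains, 8 were not called above the acrylonitrile-only level after 1 h. The exceptions were C21orf59, with 8.66% and 8.25% after 1 h and 4.15% and 4.83% with acrylonitrile only (adjusted p = 0.0094, edgeR), and FLOT1, with 5.69% and 6.16% after 1 h and 3.53% and 4.04% with acrylonitrile only (adjusted p = 0.040). FAM96B, a factor of cytosolic iron-sulfur assembly (chr16:66965959-66968326 on the minus strand, GRCh37), had 91.5% and 93.8% after 24 h, 6.13% and 5.05% after 1 h, and 7.39% and 5.48% with acrylonitrile only. Its relative change was 1.42 ± 0.10 (natural log units, SE). NARS followed with 1.17 ± 0.10, and the mitotic gene TPX2 with 1.17 ± 0.07. ACTR3 of the Arp2/3 complex had 95.5% and 92.2% after 24 h and 6.70% and 8.82% after 1 h, a change of 1.16 ± 0.11. CACYBP, ROCK1, DHX16, C21orf59, WDR46 and FLOT1 completed the 10, with changes between 1.11 and 1.15. KIF20A changed by 1.03 ± 0.10 and MKI67 by 0.86 ± 0.05. The direction and the call of all 12 were the same under every alternative run on them. With the acrylonitrile-only share taken off, however, a 1 h share at or below it was set to a small floor. For FAM96B and CACYBP (8.66% and 9.45% after 1 h, mean of 10.2% with acrylonitrile only) a large gain was thus fixed beforehand. Mean 1 h shares lay at or below that level in 166 of the 9409 genes.

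The largest relative losses were of different kinds. MACROD1, an ADP-ribose hydrolase, had 37.5% and 35.7% after 24 h, 30.2% and 28.8% after 1 h, and 7.48% and 8.36% with acrylonitrile only, a relative change of -2.11 ± 0.06. EMID1 changed by -2.20 ± 0.11, GNG4, a G protein subunit, by -1.81 ± 0.09, TBCD, a tubulin folding cofactor, by -1.80 ± 0.07 and PITRM1, a mitochondrial protease, by -1.98 ± 0.11. None of these 5 genes reached 40% after 24 h, and their acrylonitrile-only shares were at most 10.1%. PITRM1 had 16.7% and 17.7% after 24 h, 9.84% and 14.3% after 1 h and 5.28% and 6.11% with acrylonitrile only. The higher 24 h share itself was no longer called for MACROD1 without 1 h replicate 2 (log2 odds ratio 0.42) and for PITRM1 without 1 h replicate 1 (0.31) or with DESeq2 (0.60). ZNF296, with -1.76 ± 0.09, had 94.7% and 91.4% after 24 h. SLCO5A1 (-2.27 ± 0.07), HFM1 (-2.24 ± 0.06), CYBA (-2.13 ± 0.05) and POLR2L (-2.04 ± 0.06) all had over 18% marked without s4U. With that part taken off, POLR2L reversed to 3.93 and HFM1 no longer passed (-0.63). Among list members, RPL22 changed by -1.47 ± 0.07, GUSB, the lysosomal glucuronidase, by -1.40 ± 0.07 (58.8% and 58.6% after 24 h, 29.03% and 27.7% after 1 h), PFKL, a phosphofructokinase, by -1.52 ± 0.06 (32.8% and 35.0% after 24 h, 16.3% and 16.0% after 1 h) and CAPZB, an actin-capping subunit, by -1.08 ± 0.06 (73.3% and 69.0% after 24 h, 27.9% and 29.9% after 1 h).

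The medians of the immediate early, HOX, ZNF and mitotic lists kept their sign on each scale run, although HOX and ZNF genes came close to 0 with edgeR log odds against the median gene (-0.07 and -0.02). The 1 h medians of the immediate early, HOX and ZNF lists, 54.8%, 30.4% and 30.3%, lie above the 29.8% from which the median gain reaches the ceiling, so lower calls in them were to a large part fixed by the 1 h share and are given as a description. Over all 12345 genes tested, 36.7% were called lower and 22.1% higher. Of the immediate early genes 16 of 18 were called lower and 1 higher, and of the HOX genes 23 of 34 lower and 2 higher. Of the ZNF genes 117 of 200 were lower and 17 higher, and of the mitotic genes 22 of 28 higher and 0 lower. With the acrylonitrile-only share taken off, these counts were 16 lower and 0 higher, 25 lower and 1 higher, 115 lower and 16 higher, and 0 lower and 18 higher. Over all member genes they were 2511 lower and 2519 higher of 9381. With edgeR log odds against the median gene, the counts were 41 lower and 36 higher for ZNF genes, 12 lower and 8 higher for HOX genes, and 6 lower and 4 higher for the 14 stress response genes. Over all member genes they were 2428 lower and 2763 higher of 9381. Tubulins (11 of 12 higher), heat shock chaperones (17 of 25 higher) and mitochondrial ribosomal proteins (39 of 67 higher) also kept a median above 0 on the logit scale and with the background off. This was not particular to them. Aminoacyl-tRNA synthetases, SR proteins and hnRNPs, the mRNA decay machinery and Mediator subunits kept a median above 0 as well. So did the licensing, uridine and proteasome lists, the last with only 0.005 on the logit scale. JUN changed by -1.30 ± 0.05, MYC by -1.09 ± 0.05, SPRY1 by -1.71 ± 0.10, DUSP1 by -2.17 ± 0.15 and TUBA1C by 0.78 ± 0.05.

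For the lists with the lowest 24 h medians the calls moved with the treatment of the background. When it was taken off, a 1 h share at or below it was set to a small floor, which fixes a large gain for such genes. Over all members 3238 were lower and 2585 higher of 9409 on the measured shares, and 2511 lower and 2519 higher of 9381 with the acrylonitrile-only share taken off. Of the cytosolic ribosomal protein genes 70 of 83 were called lower and 3 higher on the measured shares (median -0.51), but 11 lower and 35 higher with the acrylonitrile-only share taken off (median 0.48). The matrix genes had 19 lower and 3 higher of 26, and 6 lower and 8 higher with it taken off. Glycolytic enzymes had 9 lower and 4 higher of 16, and 2 lower and 10 higher with it taken off. Oxidative phosphorylation genes had 51 lower and 6 higher of 74, and 20 lower and 16 higher with it taken off. On the logit scale all these medians lay below -1.2. With the acrylonitrile-only share taken off, the medians of the matrix genes (0.13) and glycolytic enzymes (0.69) were above 0, and that of the oxidative phosphorylation genes (-0.13) stayed below it. Their acrylonitrile-only medians were 7.02%, 7.93% and 7.36%, beside the 1 h medians given above.

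**Figure D5:**
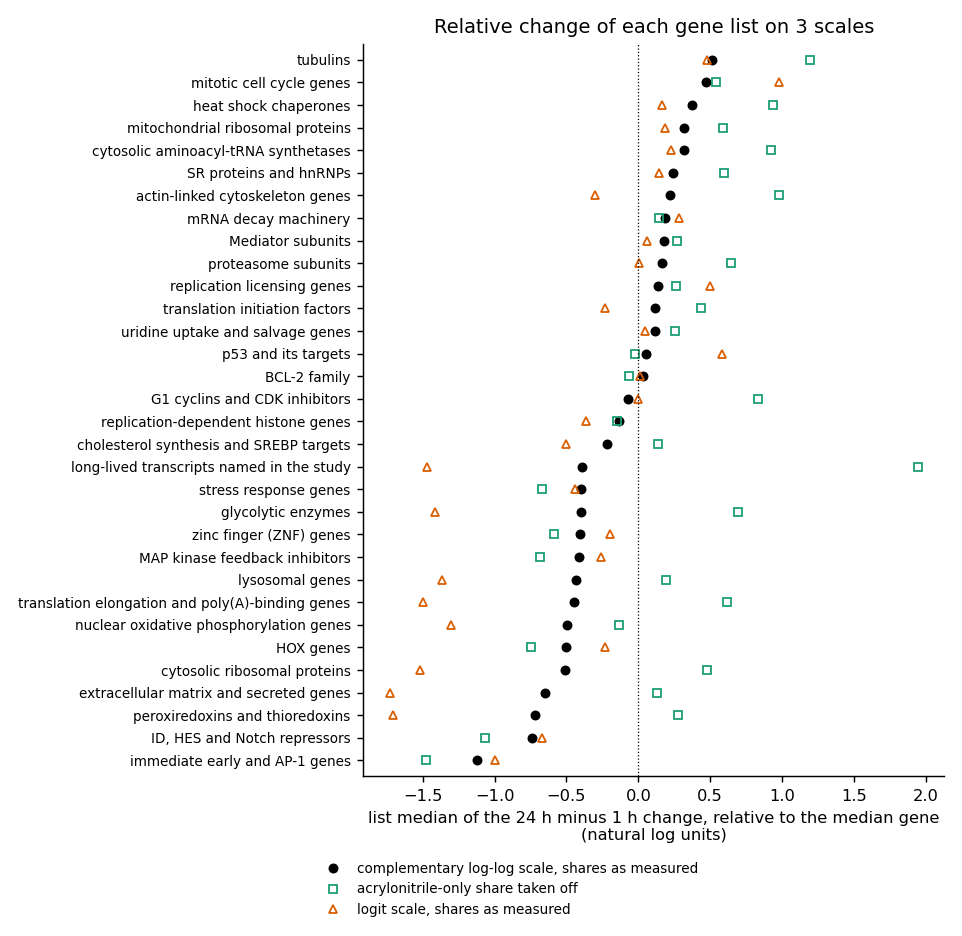
List median of the relative change, 24 h minus 1 h against the median gene (horizontal axis, natural log units), for each gene list (rows) on the complementary log-log scale (filled circles), with the acrylonitrile-only share taken off (squares) and on the logit scale (triangles). Immediate early, HOX and ZNF genes, among others, lie left of 0 with all 3 symbols. Tubulins and mitotic genes, among others, lie right of 0 with all 3 symbols. Cytosolic ribosomal proteins lie at -0.51 as circle and at 0.48 as square.

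The study's formula gave different half-lives from the 2 groups, which differ in labeling time, experiment and possibly s4U dose. The formula has no term for cell growth, which also adds marked mRNA, and its part was not tested. The median over genes was 6.85 h from the 24 h shares (6.85 ± 0.48 over the 2 library medians, SD, n = 2) and 3.44 h from the 1 h shares (3.42 ± 0.015). With the acrylonitrile-only share taken off, the medians were 7.09 h from 24 h and 5.49 h from 1 h, the second over the 9243 genes with a 1 h share above that level. The lists differed more. Mitotic genes had list medians of 5.53 h from 24 h and 4.09 h from 1 h, and 5.71 h and 7.42 h with the background off. Immediate early genes had 6.36 h from 24 h and 0.876 h from 1 h, which the background hardly moved (6.50 h and 0.964 h). Cytosolic ribosomal proteins had 24.3 h from 24 h and 6.71 h from 1 h, and 27.6 h and 25.2 h with the background off. MYC came out at 4.93 h from 24 h and 0.747 h from 1 h. The 24 h shares have a ceiling, with a 99th percentile of 97.4%, which bounds the half-lives from 24 h from below. Those half-lives therefore do not order short-lived genes, such as the immediate early against the mitotic ones.

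First-order replacement would make the quantity −ln(1 − share) 24 times larger after 24 h than after 1 h in every gene, under further conditions. All new fragments would have to be marked, none without s4U, and s4U would have to enter RNA alike in both experiments. Fragments were marked without s4U, and the other conditions were not tested. A ratio other than 24 is therefore not read as a departure from first-order replacement. The measured ratio had a median of 10.3 (7.04 to 14.4 for the middle 50%) and, with the acrylonitrile-only share taken off, of 16.7 (10.1 to 28.8, 9242 genes). With that share taken off it fell across the classes of 1 h share, with medians of 49.3 for genes under 10%, 24.7 for 10% to 20%, 10.4 for 20% to 50% and 3.70 above 50%. Since the 1 h share enters both the class and the ratio, this order is in part built in and is given as a description. The ceiling of the 24 h shares also bounds the ratio in genes with high 1 h shares.

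Features of the transcripts moved with the 2 shares to different degrees, over the 9122 genes matched to a canonical transcript. Across these genes the Spearman correlation of transcript length was 0.21 with the 24 h share and 0.13 with the 1 h share, that of gene span 0.09 and 0.19 (9409 genes), and that of the share of U in the transcript 0.19 and 0.12. The 2281 shortest transcripts (up to 2100 bases) had medians of 87.7% after 24 h and 15.8% after 1 h, and the 2281 longest (from 5406 bases) 92.2% and 19.7%. The 2353 genes with the smallest span had 89.9% and 16.1%, and the 2352 with the largest 91.3% and 21.4%. Genes with few exons for their length, a feature added after the values were seen, had medians of 92.7% and 22.0% (2281 genes), and those with many 86.96% and 15.6% (2281 genes). The 2281 most abundant genes by fragments per transcript length had 85.9% and 13.7%, and the 2281 least abundant 92.4% and 22.5%. The number of mismatches per marked fragment after 24 h also moved with the 24 h share, with a median of 3.20 for genes under 50% and 3.95 for genes from 90%. A fragment with more U has more chances to be marked, and its part in these shares was not tested.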

How the data were processed

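Fragment counts of 6 libraries were used. As the authors' methods state, reads were trimmed with cutadapt (1.18, per the submitters' notes to GEO), 1 read of identical sequences was kept, ribosomal RNA was removed with bowtie2, and unique proper pairs were mapped to GRCh37 with HISAT2 (2.1.0). T-to-C mismatches at known or newly called polymorphisms, or of base quality under 41, were left out. The deposited tables of the 24 h and acrylonitrile-only libraries hold counts of fragments by gene and number of mismatches, and those of the 1 h libraries hold counts of total and mismatch fragments. Genes are those of GENCODE 19. The tables do not name the mismatch type, and no counting tool is stated. Deposited half-lives, FPM values and libraries with PDP or without acrylonitrile were not used here.

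A fragment with at least 1 mismatch was called marked. Marked and unmarked counts were tested in 1 edgeR model (4.0.16) of all 6 libraries, with a coefficient per library and a label coefficient per group, for genes with 20 fragments in each library. The relative change was tested with limma (3.58.1) on the complementary log-log scale after adding 0.5 marked and 1 total fragment. A p under 0.05 after Benjamini-Hochberg adjustment passed. The models were tested on simulated data. Half-lives used T ln2 / −ln(1 − share). Alternatives were DESeq2, TMM factors, other minimums, pseudocounts and scales, the background taken off, the replicate block and leaving out each library. With the background taken off, a share at or below it was set to 0.5/(total + 1). The genes, lists and tests were chosen with earlier results of these data known. Named were, among genes with 200 fragments in each labelled library, the 10 highest and 10 lowest at each time, the 10 largest relative changes in each direction and the 10 smallest differences, and among all genes up to 10 not higher after 24 h, the genes the study names, and of each list the 4 with most fragments and the highest and lowest at each time. Other named genes were chosen after their values were seen. Genes with under 50 fragments in a labelled library were left out. Single values of some genes are not reported here.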

Additional observations from a re-analysis of the deposited data

How the results depend on the processing

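The counts of genes higher after 24 h than after 1 h, higher after 24 h than with acrylonitrile only and higher after 1 h than with acrylonitrile only stayed within 1.5 times under every alternative. Leaving out 1 library gave 9363 to 9374, 9375 to 9377 and 6748 to 7425 genes. The single gene lower after 24 h than after 1 h was lost (0 genes) with DESeq2, with at least 100 fragments, and among genes under 15% marked without s4U, and leaving out 1 library gave 0 to 1. The 7 genes lower after 1 h than with acrylonitrile only were 4 with at least 100 fragments, 2 among genes under 15% marked without s4U, and 3 to 7 without 1 library. The alternative on genes under 15% was chosen after seeing the data. Relative to the median gene, 1706 genes were higher and 3253 lower of 7431 with at least 100 fragments (the cause was not tested), and without 1 library 2050 to 2744 were higher and 2544 to 3379 lower. POLR2L reversed to 3.93 with the acrylonitrile-only share taken off. Over all genes of the tables the marked share of fragments was 76.9% after 24 h and 17.2% after 1 h, and over genes with 200 fragments 74.9% and 16.0%. The median gene had 77.7% after 24 h when 2 mismatches were required, and 16.3% after 1 h among genes with 200 fragments. Without 1 of its replicates it had 90.1% to 92.3% after 24 h and 18.3% to 18.4% after 1 h. The median half-life from 1 h was 5.49 h with the acrylonitrile-only share taken off and 3.91 h among genes with 200 fragments. The rank correlation of the times was 0.56 with 200 fragments, 0.65 with 1000 and 0.49 with the acrylonitrile-only share taken off. Replicate numbers did not pair the 24 h with the 1 h libraries (correlation of deviations -0.01). Pairing of the 24 h with the acrylonitrile-only libraries was not tested. Replicates 1 and 2 had 70.7% and 68.4% of fragments in genes after 24 h, and 70.9% and 68.6% with acrylonitrile only. With the replicate block 9369 genes were higher after 24 h than after 1 h, and 2645 higher and 3262 lower relative to the median gene. After 1 h, 1459 of 9381 genes could not be told from the acrylonitrile-only level, and 771 of 6490 with at least 100 fragments.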

Other observations

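Classes of genes outside the protein-coding set, with the same minimum of 50 fragments in each labelled library, differed in their shares. Antisense genes had medians of 91.7% after 24 h and 34.8% after 1 h (146 genes), lincRNAs 92.9% and 28.4% (94 genes), processed transcripts 91.9% and 28.1% (136 genes) and pseudogenes 93.4% and 30.8% (176 genes), beside 91.2% and 18.4% for the 9409 coding genes. The 5 genes of the misc_RNA class had 49.5% and 12.2%, and 5 polymorphic pseudogenes 84.0% and 14.1%. These differences were not tested, and reads of pseudogenes may come from their parent genes. The snoRNA host gene SNHG17 had 94.8% and 93.1% after 24 h and 64.6% and 61.0% after 1 h, and SNHG7 had 95.2% and 94.8% after 24 h and 54.5% and 51.3% after 1 h. SNHG16, another host gene, had 89.8% and 88.6% after 24 h but 17.7% and 19.02% after 1 h. MALAT1, a nuclear RNA, had 74.7% and 71.2% after 24 h and 9.30% and 9.67% after 1 h. The RNAs made by RNA polymerase III that are given here were low after 24 h. After 1 h, RPPH1, RN7SL1 and RN7SK lay close to or below their acrylonitrile-only level, whereas RMRP lay above it. RMRP had 41.1% and 38.4% after 24 h, 14.1% and 13.8% after 1 h, and 10.7% and 11.5% with acrylonitrile only. RPPH1, the RNA of RNase P, had 35.3% and 34.1% after 24 h, 6.46% and 6.90% after 1 h, and 6.63% and 6.37% with acrylonitrile only. RN7SL1 of the signal recognition particle had 45.8% and 45.1% after 24 h, 7.84% and 7.63% after 1 h, and 8.91% and 9.23% with acrylonitrile only. RN7SK had 41.9% and 41.2% after 24 h and 11.9% and 12.4% after 1 h, beside 15.4% and 16.3% with acrylonitrile only.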
